A study of Homo sapiens with 72 samples.

Results

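The genes described here are 8 of the 62266 genes in the count table: the aryl hydrocarbon receptor AHR, its DNA-binding partners ARNT and ARNT2, the repressor AHRR, and 4 genes that the receptor is known to induce, TIPARP, CYP1A1, CYP1B1 and ALDH3A1. They were taken by symbol as members of the AHR pathway, a choice made with earlier results of these data known, and all 8 were present. After a filter on low counts, 7 of the 8 could be tested in Ecto cells and all 8 in Endo and VK2 cells; the gene that did not pass in Ecto cells was ALDH3A1.

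In GRCh38 coordinates, AHR (ENSG00000106546.14) lies at chr7:16916359-17346152, ARNT (ENSG00000143437.21) at chr1:150809713-150876708, ARNT2 (ENSG00000172379.22) at chr15:80404350-80597933 and AHRR (ENSG00000063438.20) at chr5:321714-438291. TIPARP (ENSG00000163659.13) lies at chr3:156673235-156706770, CYP1A1 (ENSG00000140465.15) at chr15:74719542-74725536, CYP1B1 (ENSG00000138061.12) at chr2:38066973-38109902 and ALDH3A1 (ENSG00000108602.18) at chr17:19737984-19748943. All 8 are protein-coding, and values are levels of whole genes.

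AHR is a ligand-activated transcription factor of the basic helix-loop-helix PAS family that waits in the cytosol in a complex with HSP90 chaperones. Once bound by polycyclic hydrocarbons or by tryptophan-derived indoles and kynurenines, which both host cells and bacteria make, it enters the nucleus, pairs with ARNT or its relative ARNT2 and binds a short core motif in DNA. Its targets include the enzymes that clear its ligands and proteins that switch it off, and in squamous barrier epithelia the pathway is known for a part in terminal differentiation.

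Ecto, Endo and VK2 are established human epithelial lines from the ectocervix, endocervix and vagina, each immortalized with papillomavirus oncogenes, and each stands for 1 line. Each line was grown in 8 groups of 3 libraries. Cells were given spermine (SPM, 400 µM), spermidine (SPD, 400 µM), putrescine (PUT, 4 mM) or no polyamine (NT) for 4 h, and were then exposed for 24 h to live Gardnerella vaginalis (GV, 10000000 colony-forming units per well), a bacterium common in bacterial vaginosis, or to none (noGV). The groups are called SPM+GV, SPD+GV, PUT+GV, NT+GV, SPM+noGV, SPD+noGV, PUT+noGV and NT+noGV, and the comparisons ask what GV does to the pathway and whether a polyamine given first changes that.

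Summed counts ran between 20152143 and 42767996 per library (median 31872238.5, 72 libraries). Summed levels of 7 epithelial markers were 5208 to 10694 CPM in Ecto, 8872 to 19090 CPM in Endo and 21121 to 34065 CPM in VK2 libraries. KRT7, a keratin of glandular epithelium, stood at 649 to 1629 CPM in Endo libraries and at no more than 22.9 CPM in the other lines, while the mucin MUC5B stayed at or below 0.442 CPM in every library, so this defining product of endocervical glands was nearly absent. Leukocyte markers summed to 0.335 to 11.5 CPM, with CD14 at 0.335 to 11.5 CPM and TYROBP at 0 to 0.0302 CPM. Ecto SPD+noGV replicate 3 lay farthest from its group mean. Nothing in the labels says that replicates were separate cultures, so p-values measure the spread between these libraries only, and in bulk RNA fewer expressing cells and less RNA per cell cannot be told apart.

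The receptor is known to bind GCGTG, and the RefSeq promoter windows of the members (GRCh38.p14, 250 bases before to 50 after the annotated start) were searched for it on both strands. Of the 8 members, 5 matched the table, with 8 windows in all. The windows shown are those of CYP1A1 and TIPARP, targets that rose with GV in all 3 lines, and the AHRR window that also held the longer form TNGCGTG, which contains the core. The core is in capitals, and CACGC is the core read on the other strand. Sequences run 5′ to 3′ on the strand of the gene, which is the minus strand for CYP1A1 (chr15:74725479-74725778) and the plus strand for TIPARP (chr3:156674340-156674639) and AHRR (chr5:321464-321763).
CYP1A1: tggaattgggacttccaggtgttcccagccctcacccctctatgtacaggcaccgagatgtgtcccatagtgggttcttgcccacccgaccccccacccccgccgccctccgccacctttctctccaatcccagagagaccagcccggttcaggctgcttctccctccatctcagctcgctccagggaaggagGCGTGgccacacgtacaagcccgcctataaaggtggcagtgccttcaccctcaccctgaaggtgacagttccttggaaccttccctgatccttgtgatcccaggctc
TIPARP: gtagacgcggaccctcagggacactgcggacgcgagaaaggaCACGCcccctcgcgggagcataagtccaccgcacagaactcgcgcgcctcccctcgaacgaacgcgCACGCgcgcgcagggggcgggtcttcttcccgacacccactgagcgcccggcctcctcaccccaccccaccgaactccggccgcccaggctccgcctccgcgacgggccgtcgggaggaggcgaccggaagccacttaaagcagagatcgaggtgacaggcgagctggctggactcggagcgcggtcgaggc
AHRR: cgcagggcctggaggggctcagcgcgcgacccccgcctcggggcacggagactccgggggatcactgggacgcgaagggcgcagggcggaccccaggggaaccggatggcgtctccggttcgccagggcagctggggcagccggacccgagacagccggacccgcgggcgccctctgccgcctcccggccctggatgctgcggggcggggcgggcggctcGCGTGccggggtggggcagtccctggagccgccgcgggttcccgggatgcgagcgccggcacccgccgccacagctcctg
CYP1A1 held 1 core that began 57 bases before the start, this TIPARP window held 2, and this AHRR window held 1. A second AHRR window held 2 cores, the AHR window held 1, and none was found in these letters in the ARNT window or in the other 2 TIPARP windows. For reference, 36.5% of all 35116 promoter windows held the core and 5.51% held TNGCGTG. The upstream enhancer through which AHR is known to act on CYP1A1 lies outside the window and was not searched.

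**Figure D1:**
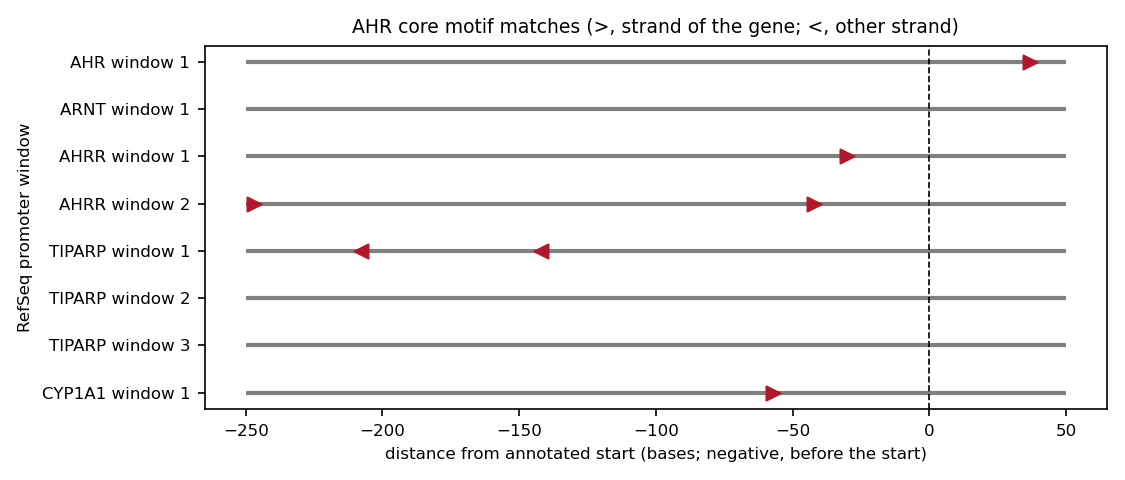
Positions of the GCGTG core in the 8 RefSeq promoter windows of AHR, ARNT, AHRR, TIPARP and CYP1A1. The horizontal axis is the distance from the annotated start in bases, each grey line is a window, and each marker is the first base of a match, pointing right on the strand of the gene and left on the other strand. The CYP1A1 match lies 57 bases before the start, and the ARNT window has no marker.

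Before any treatment, the lines already differed in most members, as they did in most genes tested. In NT+noGV libraries AHR, the receptor, stood at 82.1, 70.3 and 68 CPM in Ecto, at 178, 168 and 190 CPM in Endo and at 154, 141 and 141 CPM in VK2. Ecto thus lay below the other two lines without overlap, by 1.32 on the log2 scale against Endo (log2 difference -1.32, SE 0.08, adjusted p = 5.7e-21) and by 1.06 against VK2 (log2 difference -1.06, SE 0.08, adjusted p = 4.5e-17). These values come from an edgeR quasi-likelihood model over all 72 libraries, with p-values adjusted by Benjamini-Hochberg over the 21195 genes tested, and a gene passed at an adjusted p under 0.05. Of 8 members, 6 passed between Ecto and Endo, 6 between Ecto and VK2 and 6 between Endo and VK2, where 63.9%, 63.8% and 59.6% of all genes passed.

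The partner ARNT, which also serves the hypoxia response, differed little in size across lines, at 50.3 ± 1.76 CPM in Ecto, 42.2 ± 0.643 CPM in Endo and 45.9 ± 1.03 CPM in VK2 (SD, n = 3 each). By edgeR, Endo lay below Ecto (log2 difference between Ecto and Endo 0.21, SE 0.06, adjusted p = 0.00085). It also lay below VK2 (log2 difference between Endo and VK2 -0.16, SE 0.06, adjusted p = 0.017). Ecto and VK2 did not differ beyond their spread (log2 difference 0.06, SE 0.06, adjusted p = 0.38 by edgeR). ARNT2, a paralogue best known from neurons, was ordered Ecto, Endo, VK2, at 4.74 ± 0.424, 3.33 ± 0.373 and 1.99 ± 0.439 CPM (SD, n = 3 each). All 3 pairs differed in the edgeR model, with log2 differences of 0.47 between Ecto and Endo (adjusted p = 0.0011), 1.16 between Ecto and VK2 (adjusted p = 6.5e-11) and 0.69 between Endo and VK2 (adjusted p = 8.6e-05). AHRR, which competes with AHR for its partner, was expressed mainly in VK2, whose libraries held 3.09, 3.97 and 3.08 CPM, against 0.0482 to 0.490 CPM in Ecto and 0.101 to 0.370 CPM in Endo.

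TIPARP, a mono-ADP-ribosyltransferase that limits AHR signalling, was ordered the other way from ARNT2, at 53.6 ± 0.973 CPM in Ecto, 77.6 ± 1.34 CPM in Endo and 137 ± 2.66 CPM in VK2 (SD, n = 3 each), and every pair differed, with log2 differences between -1.43 and -0.58. The hydroxylase CYP1B1, which acts on steroids as well as hydrocarbons, was highest in Endo, at 1.63 ± 0.253 CPM in Ecto, 18.2 ± 0.555 CPM in Endo and 4.29 ± 0.639 CPM in VK2 (SD, n = 3 each). Its log2 difference was -3.56 (SE 0.18) between Ecto and Endo and 2.04 (SE 0.15) between Endo and VK2. CYP1A1, the classical AHR-induced hydroxylase, was barely expressed and did not separate the lines: it stood at 1.12 ± 0.0758 CPM in Ecto, 0.893 ± 0.234 CPM in Endo and 1.38 ± 0.248 CPM in VK2 (SD, n = 3 each), with adjusted p-values of 0.48, 0.24 and 0.068 by edgeR for Ecto against Endo, Ecto against VK2 and Endo against VK2. ALDH3A1, an aldehyde dehydrogenase, had 0.0330 ± 0.0286 CPM in Ecto, 0.407 ± 0.0651 CPM in Endo and 0.179 ± 0.0562 CPM in VK2 (SD, n = 3 each).

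With GV and no polyamine, CYP1A1, CYP1B1, ARNT2 and TIPARP rose in all 3 lines, CYP1A1 by the most in Ecto and Endo and by about as much as CYP1B1 in VK2. The receptor itself passed in Endo only, where it fell. Of the members tested, 5 of 7 passed in Ecto, 6 of 8 in Endo and 5 of 8 in VK2 for NT+GV against NT+noGV, where 44.6%, 54.4% and 26.4% of all genes passed in the edgeR model of each line. These models held the 24 libraries of 1 line with 16 residual degrees of freedom, and all adjusted p-values below come from them unless another test is named.

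CYP1A1 stood at 23.2, 28.5 and 32.7 CPM in Ecto NT+GV libraries, against 1.10, 1.21 and 1.06 CPM in Ecto NT+noGV libraries. In Endo it stood at 15.5, 18.8 and 17.3 CPM with GV, against 0.926, 1.11 and 0.644 CPM without, and in VK2 at 7.39, 7.73 and 7.85 CPM with GV, against 1.56, 1.49 and 1.10 CPM without. The lowest GV library was above the highest unexposed library in each line, although the lines had started at levels that did not separate them. The log2 fold changes were 4.66 in Ecto (SE 0.17, 25.3-fold, adjusted p = 4.9e-15), 4.26 in Endo (SE 0.20, 19.2-fold, adjusted p = 3.1e-13) and 2.49 in VK2 (SE 0.18, 5.62-fold, adjusted p = 7.6e-11).

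CYP1B1 rose with GV from a different starting order. It stood at 7.74, 9.46 and 9.31 CPM in Ecto NT+GV libraries, against 1.68, 1.85 and 1.35 CPM in Ecto NT+noGV libraries (log2 fold change 2.46, SE 0.19, adjusted p = 8.9e-10). In Endo the values were 37.2, 41.9 and 43.1 CPM with GV, against 18.3, 17.6 and 18.7 CPM without (log2 fold change 1.15, SE 0.12, adjusted p = 2.2e-07). In VK2 they were 24.5, 20.9 and 26.2 CPM with GV, against 5.01, 3.78 and 4.09 CPM without (log2 fold change 2.49, SE 0.13, adjusted p = 9.5e-13). Groups did not overlap in any line, and Endo, the line with the highest unexposed level, had the smallest fold change.

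ARNT2 was the partner that rose. Its NT+GV libraries held 18.5, 19.5 and 18.9 CPM in Ecto, against 4.71, 4.33 and 5.18 CPM in NT+noGV libraries (log2 fold change 1.99, SE 0.09, adjusted p = 6.2e-15). In Endo they held 9.84, 11.6 and 11.5 CPM, against 3.33, 2.96 and 3.70 CPM (log2 fold change 1.71, SE 0.11, adjusted p = 5.3e-14). In VK2 they held 2.64, 3.79 and 3.68 CPM, against 2.40, 1.53 and 2.04 CPM (log2 fold change 0.75, SE 0.16, adjusted p = 0.00045), so that the lowest GV library was only just above the highest unexposed one. ARNT, in contrast, fell in Ecto (log2 fold change -0.31, SE 0.07, adjusted p = 0.00064) and in Endo (-0.39, SE 0.05, adjusted p = 2.5e-07). Its change in VK2 was 0.10 (95% interval 0.00 to 0.20, adjusted p = 0.12).

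AHR fell in Endo, where NT+GV libraries held 104, 94.5 and 102 CPM, against 178, 168 and 190 CPM in NT+noGV libraries (log2 fold change -0.84, SE 0.07, adjusted p = 9.6e-10). Its change did not pass in Ecto (log2 fold change -0.23, 95% interval -0.45 to -0.02, adjusted p = 0.064) or in VK2 (-0.11, 95% interval -0.23 to 0.01, adjusted p = 0.18). The Ecto value passed when only the groups compared were fitted (adjusted p = 0.012), when no filter was applied (0.0010) and without Ecto NT+noGV replicate 3 (0.041). TIPARP rose by a similar small amount in each line, with log2 fold changes of 0.33 in Ecto (SE 0.07), 0.35 in Endo (SE 0.04) and 0.39 in VK2 (SE 0.04) and adjusted p-values of 0.00034, 8.6e-08 and 6.7e-09. Its NT+GV libraries held 67.6, 70.1 and 65.4 CPM in Ecto, against 53.3, 52.8 and 54.7 CPM in NT+noGV libraries, and the groups did not overlap in Endo or VK2 either.

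AHRR passed in VK2, the line where it was expressed, with 5.79, 6.45 and 4.26 CPM in NT+GV libraries, against 3.09, 3.97 and 3.08 CPM in NT+noGV libraries (log2 fold change 0.71, SE 0.23, adjusted p = 0.027). That call was lost, at adjusted p-values of 0.083 to 0.11, without NT+GV replicate 1 or 2 or NT+noGV replicate 1 or 3. In Ecto and Endo its 95% intervals were -0.83 to 2.55 and -1.42 to 4.56, and without Ecto NT+noGV replicate 2 the Ecto change passed (adjusted p = 0.048). AHRR shares exons with the read-through gene PDCD6-AHRR, so estimated counts could be split between them. ALDH3A1 had 0.541, 0.527 and 0.693 CPM in Endo NT+GV libraries, against 0.370, 0.369 and 0.483 CPM in Endo NT+noGV libraries (log2 fold change 0.51, 95% interval -0.26 to 1.28), and 0.143 to 0.379 CPM in VK2 NT+GV libraries, against 0.115 to 0.214 CPM in VK2 NT+noGV libraries (0.44, 95% interval -0.76 to 1.64). It had 0 counts in 3 of the 72 libraries, which allows up to 0.0928 to 0.113 CPM there at a floor of 3 counts.

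**Figure D2:**
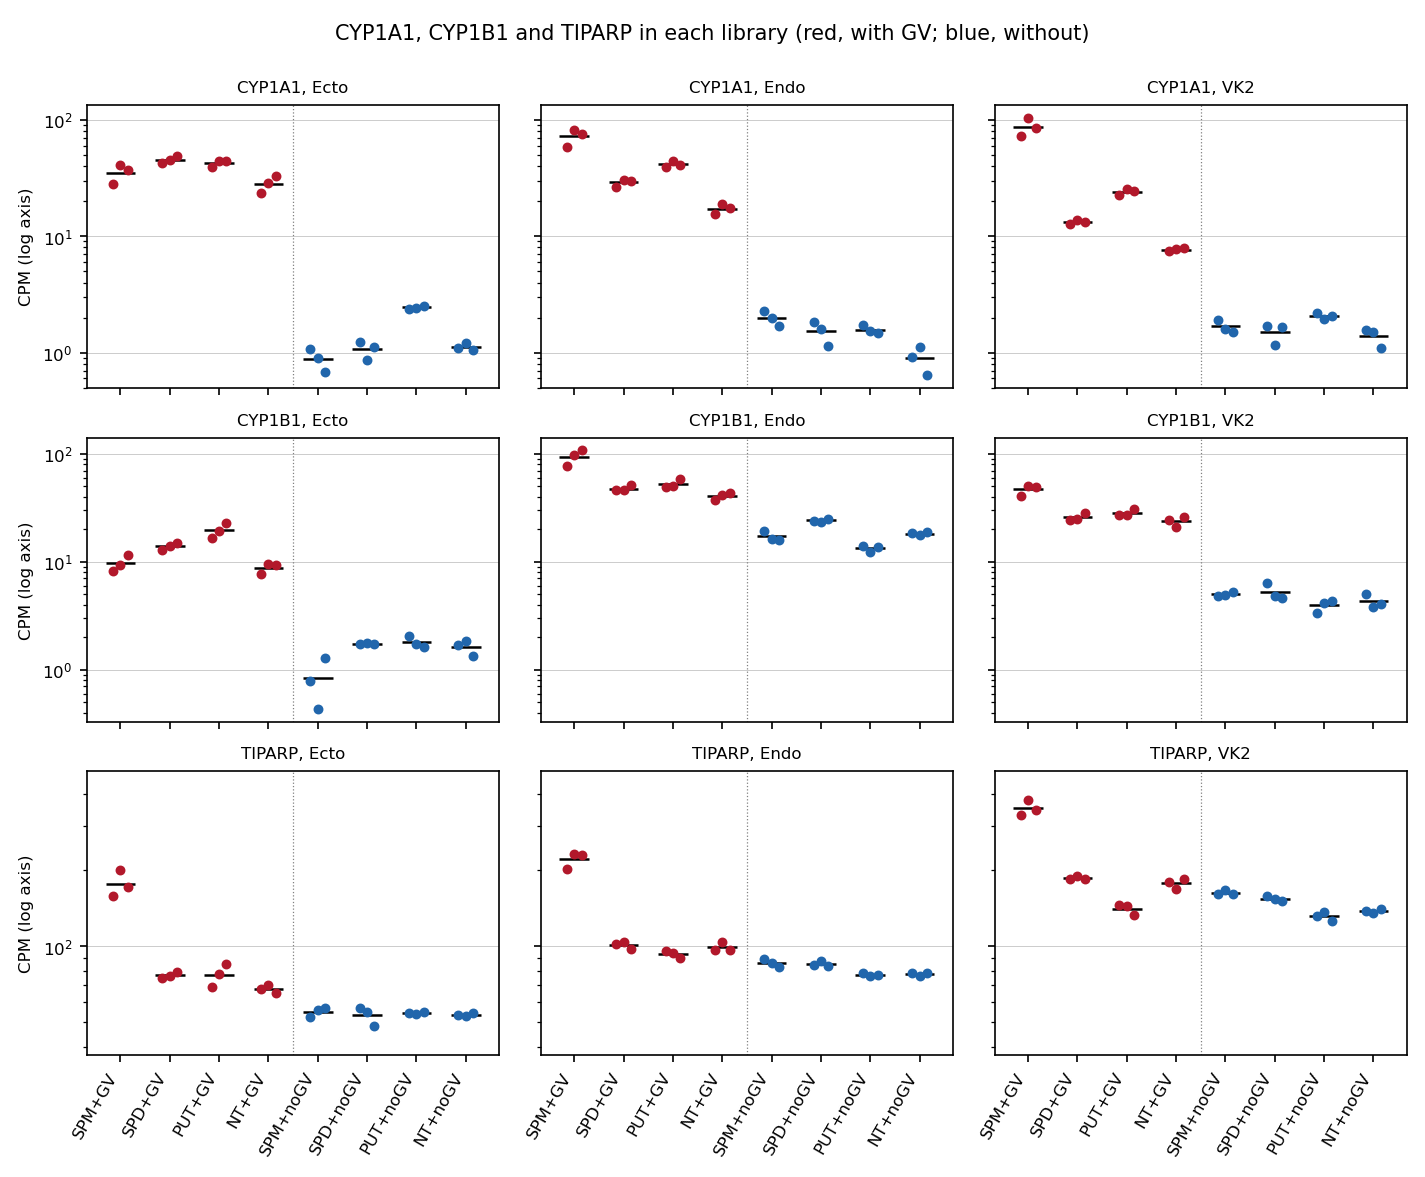
Levels of CYP1A1, CYP1B1 and TIPARP in each of 72 libraries, with 1 row per gene and 1 column per line. The vertical axis is CPM on a log axis, the horizontal axis gives the 8 groups, points are libraries (red with GV, blue without) and bars are means of 3. CYP1A1 lies between 7.39 and 104 CPM in every GV library and between 0.644 and 2.53 CPM in every library without GV.

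The response to GV differed between lines for 5 of 8 members in a test of the difference itself (edgeR, 72 libraries, 3 lines), against 43% of all genes. The 5 were AHR, ARNT, ARNT2, CYP1A1 and CYP1B1. CYP1A1 and ARNT2 had their smallest change in VK2, CYP1B1 in Endo, and AHR had its largest fall in Endo. For TIPARP the test of the difference gave an adjusted p of 0.92, and its 95% intervals were 0.19 to 0.48 in Ecto, 0.25 to 0.44 in Endo and 0.30 to 0.48 in VK2.

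Putrescine given before GV was accompanied by more CYP1A1 and more ARNT2 than GV alone in all 3 lines, while ARNT fell in all 3. For PUT+GV against NT+GV, 5 of 7 members passed in Ecto, 5 of 8 in Endo and 5 of 8 in VK2, where 56.3%, 56.1% and 60.4% of all genes passed. The comparisons of PUT, SPD and SPM with NT+GV share the same 3 NT+GV libraries in each line.

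ARNT2 in VK2 showed the widest change. The PUT+GV libraries held 19.4, 20.3 and 19.1 CPM, against 2.64, 3.79 and 3.68 CPM in NT+GV libraries (log2 fold change 2.52, SE 0.12, 5.72-fold, adjusted p = 1.3e-17). In Endo they held 23.2, 24.1 and 25.4 CPM, against 9.84, 11.6 and 11.5 CPM (log2 fold change 1.16, SE 0.09, adjusted p = 2.2e-12). In Ecto, where GV alone had already brought ARNT2 to a mean of 19 CPM, they held 20.8, 23.1 and 20.3 CPM (log2 fold change 0.24, SE 0.08, adjusted p = 0.011), and this small difference did not pass with DESeq2 (adjusted p = 0.0665), with its size factors (0.0539), or without NT+GV replicate 1 (0.0501) or PUT+GV replicate 2 (0.0899). With putrescine and GV together the 3 lines ended at means of 21.4 ± 1.52, 24.2 ± 1.13 and 19.6 ± 0.597 CPM in Ecto, Endo and VK2 (SD, n = 3 each).

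CYP1A1 in PUT+GV libraries stood at 39.1, 44.6 and 43.8 CPM in Ecto, against 23.2, 28.5 and 32.7 CPM in NT+GV libraries (log2 fold change 0.66, SE 0.11, adjusted p = 3.0e-05). It stood at 39.2, 44.3 and 40.5 CPM in Endo, against 15.5, 18.8 and 17.3 CPM (1.28, SE 0.11, adjusted p = 5.3e-09), and at 22.4, 25.4 and 24.2 CPM in VK2, against 7.39, 7.73 and 7.85 CPM (1.62, SE 0.11, adjusted p = 7.0e-12). No PUT+GV library overlapped its NT+GV group. CYP1B1 followed a different order: it rose in Ecto to 16.5, 19.3 and 22.7 CPM, against 7.74, 9.46 and 9.31 CPM in NT+GV libraries (log2 fold change 1.21, SE 0.15, adjusted p = 3.0e-07), and in Endo by less (0.39, SE 0.11, adjusted p = 0.0052, or 0.052 without PUT+GV replicate 3). In VK2 its change of 0.22 (95% interval 0.00 to 0.43, adjusted p = 0.067) did not pass, although it did with no filter (0.0049) and with only these groups fitted (0.014).

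ARNT had log2 fold changes of -0.24 in Ecto (adjusted p = 0.0054), -0.33 in Endo (adjusted p = 7.5e-06) and -0.46 in VK2 (adjusted p = 6.6e-10) for PUT+GV against NT+GV. AHR fell in VK2, to 87.8, 82 and 86.8 CPM in PUT+GV libraries, against 138, 119 and 141 CPM in NT+GV libraries (log2 fold change -0.67, SE 0.06, adjusted p = 5.8e-10), whereas the intervals were -0.23 to 0.20 in Ecto and -0.19 to 0.10 in Endo. TIPARP went opposite ways: it rose in Ecto (log2 fold change 0.25, adjusted p = 0.0031, or 0.11 without PUT+GV replicate 3) and fell in VK2 (-0.37, SE 0.04, adjusted p = 3.7e-09), with -0.07 (95% interval -0.16 to 0.02) in Endo. ALDH3A1 rose in Endo, to 0.857, 1.12 and 1.21 CPM in PUT+GV libraries, against 0.541, 0.527 and 0.693 CPM in NT+GV libraries (log2 fold change 0.87, SE 0.32, adjusted p = 0.020). That call was lost, at adjusted p-values of 0.059 to 0.087, without NT+GV replicate 1 or 2 or PUT+GV replicate 2 or 3.

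Spermidine at 400 µM before GV raised CYP1A1 and ARNT2 in all 3 lines. For SPD+GV against NT+GV, 3 of 7 members passed in Ecto, 2 of 8 in Endo and 3 of 8 in VK2, where 13.1%, 13.9% and 12.7% of all genes passed. CYP1A1 averaged 45.1 ± 3.01 CPM in Ecto SPD+GV libraries, against 28.2 ± 4.77 CPM in NT+GV libraries (log2 fold change 0.68, SE 0.11, adjusted p = 0.00043; SD, n = 3 each). In Endo it averaged 28.9 ± 2.33 CPM, against 17.2 ± 1.69 CPM (0.76, SE 0.11, adjusted p = 0.00015), and in VK2 13.2 ± 0.543 CPM, against 7.66 ± 0.236 CPM (0.79, SE 0.12, adjusted p = 7.8e-05). ARNT2 had log2 fold changes of 0.46 in Ecto (adjusted p = 0.00034), 0.60 in Endo (adjusted p = 4.2e-05) and 0.69 in VK2 (adjusted p = 0.00062). The other calls were CYP1B1 in Ecto (0.66, SE 0.15, adjusted p = 0.0057) and AHR in VK2 (-0.34, SE 0.06, adjusted p = 0.00038). Some changes passed only under alternatives. In Ecto, ARNT (-0.19) passed with DESeq2 (adjusted p = 0.048), with no filter (0.041) and with only these groups fitted (0.0080). AHRR in Ecto (1.40) passed with no filter (0.0060) and without SPD+GV replicate 1 (0.049). TIPARP in Ecto (0.18) and CYP1B1 in Endo (0.24) passed with only these groups fitted (0.0056 and 0.032). A test of whether these responses differed between lines gave adjusted p-values between 0.14 and 0.91 over the 8 members, where 4.72% of all genes passed.

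Spermine at the same 400 µM before GV gave the highest CYP1A1 levels of the series in VK2 and Endo and was accompanied by more TIPARP in every line. For SPM+GV against NT+GV, 5 of 7 members passed in Ecto, 4 of 8 in Endo and 6 of 8 in VK2, where 56%, 43% and 58.3% of all genes passed. CYP1A1 stood at 72, 104 and 85.1 CPM in VK2 SPM+GV libraries, against 7.39, 7.73 and 7.85 CPM in NT+GV libraries (log2 fold change 3.52, SE 0.11, 11.5-fold, adjusted p = 1.1e-18). In Endo it stood at 58.4, 81.9 and 75.1 CPM, against 15.5, 18.8 and 17.3 CPM (2.10, SE 0.11, 4.30-fold, adjusted p = 4.9e-12). Both lines were thus far outside the NT+GV range. In Ecto the groups overlapped, at 28, 40.5 and 36.8 CPM with spermine and 23.2, 28.5 and 32.7 CPM without (0.47, SE 0.11, adjusted p = 0.0013), and the call was lost when only these groups were fitted (adjusted p = 0.11).

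TIPARP rose in all 3 lines, with non-overlapping groups. SPM+GV libraries held 159, 200 and 171 CPM in Ecto, against 67.6, 70.1 and 65.4 CPM in NT+GV libraries (log2 fold change 1.53, SE 0.07, adjusted p = 8.0e-16). In Endo they held 202, 231 and 230 CPM, against 96.9, 104 and 96.5 CPM (1.20, SE 0.04, adjusted p = 3.9e-20), and in VK2 330, 378 and 346 CPM, against 179, 169 and 185 CPM (0.99, SE 0.04, adjusted p = 1.5e-19). CYP1B1 rose in Endo, to 94.3 ± 15.8 CPM, against 40.7 ± 3.09 CPM in NT+GV libraries (1.26, SE 0.11, adjusted p = 2.9e-08; SD, n = 3 each), and in VK2, to 47 ± 5.29 CPM, against 23.9 ± 2.74 CPM (0.98, SE 0.10, adjusted p = 1.6e-08). In Ecto its interval was -0.04 to 0.61 (adjusted p = 0.12, or 0.031 with no filter and 0.046 without SPM+GV replicate 1).

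ARNT2 went in opposite directions with spermine. In Ecto it fell to 8.87, 9.43 and 9.71 CPM in SPM+GV libraries, against 18.5, 19.5 and 18.9 CPM in NT+GV libraries (log2 fold change -0.87, SE 0.08, adjusted p = 2.3e-09). In VK2 it rose to 9.44, 9.88 and 10.3 CPM, against 2.64, 3.79 and 3.68 CPM (1.57, SE 0.13, adjusted p = 5.1e-12). In Endo the groups overlapped, at 10.8, 12.5 and 10.3 CPM with spermine and 9.84, 11.6 and 11.5 CPM without (0.07, 95% interval -0.13 to 0.28).

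AHR rose with spermine in Ecto, to 91.1, 104 and 96 CPM, against 62.7, 64.4 and 60.7 CPM in NT+GV libraries (log2 fold change 0.78, SE 0.10, adjusted p = 1.1e-06), and in Endo, to 136, 137 and 135 CPM, against 104, 94.5 and 102 CPM (0.49, SE 0.07, adjusted p = 5.8e-06). It fell slightly in VK2 (-0.19, SE 0.06, adjusted p = 0.0079). ARNT fell in Ecto (-0.48, SE 0.07, adjusted p = 2.4e-06) and in VK2 (-0.21, SE 0.05, adjusted p = 0.00033), and its interval in Endo was -0.20 to 0.03.

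**Figure D3:**
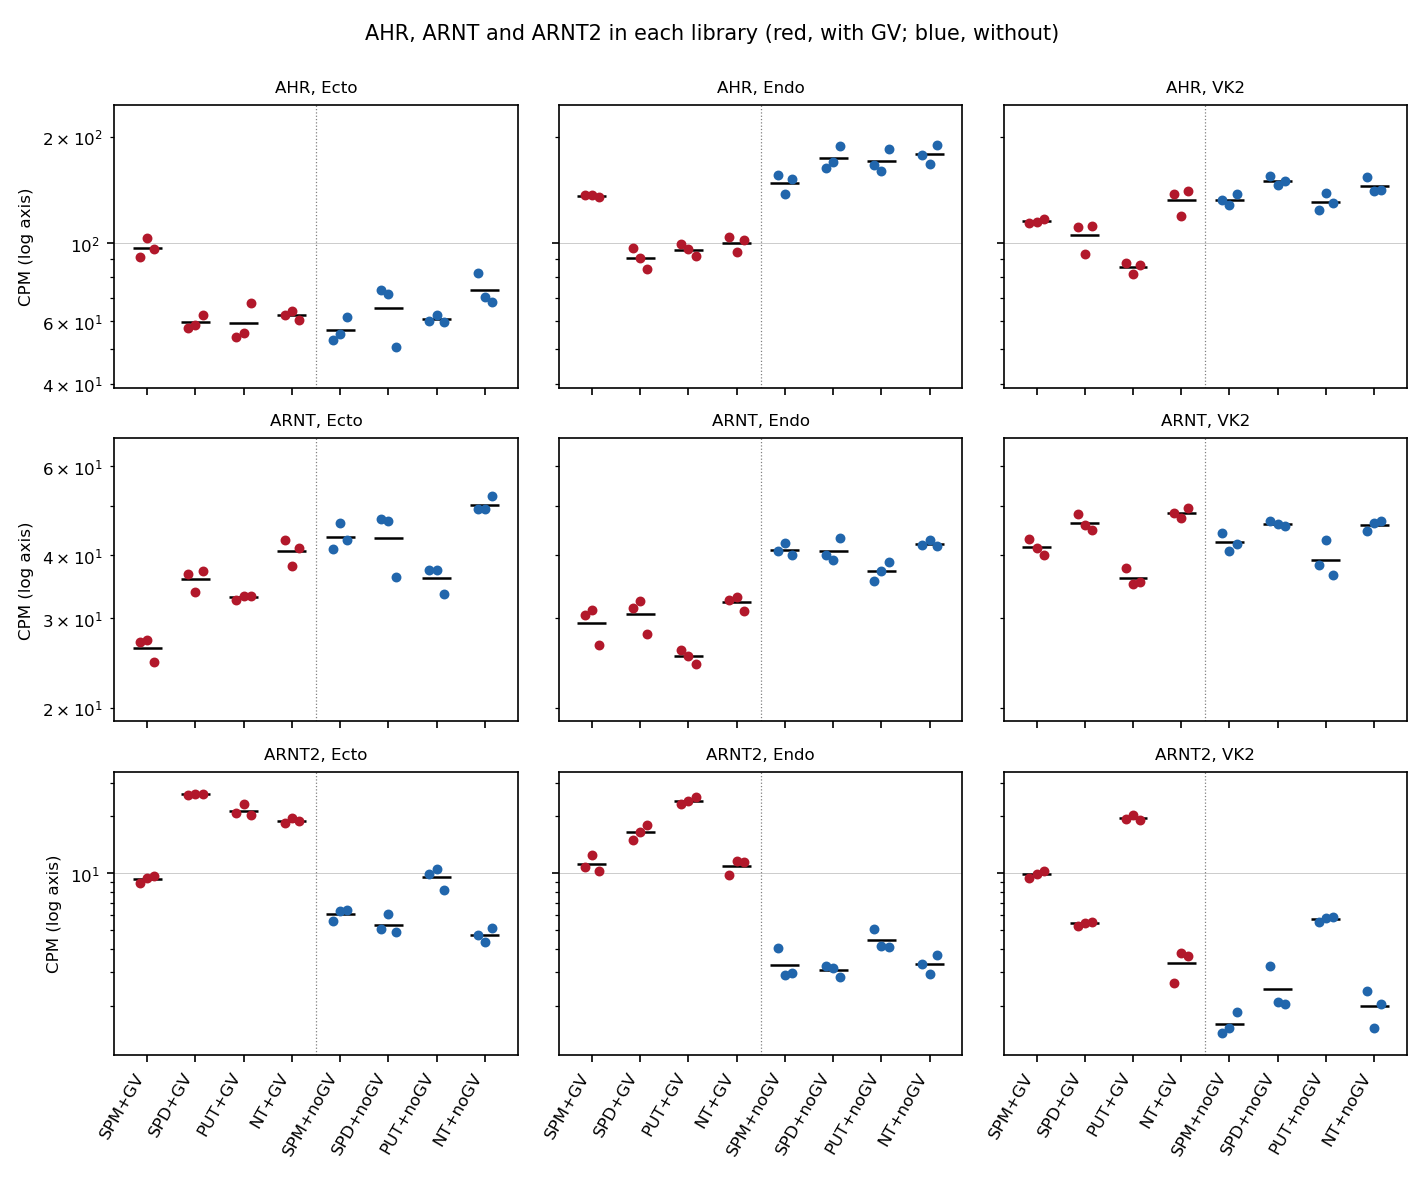
Levels of AHR and its partners ARNT and ARNT2 in each of 72 libraries, with 1 row per gene and 1 column per line. The vertical axis is CPM on a log axis, the horizontal axis gives the 8 groups, points are libraries (red with GV, blue without) and bars are means of 3. ARNT2 in VK2 reaches 19.1 to 20.3 CPM in PUT+GV libraries, against 2.64 to 3.79 CPM in NT+GV libraries.

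The response to a polyamine before GV differed between lines for 5 of 8 members with putrescine (43% of all genes) and for 6 of 8 with spermine (43.3% of all genes). With putrescine these were AHR, ARNT2, TIPARP, CYP1A1 and CYP1B1, and with spermine ARNT was added to them. ARNT2 had the smallest adjusted p among the members for putrescine (7.5e-20) and CYP1A1 for spermine (3.0e-20). The order of the lines was Ecto below Endo below VK2 in the fold change of ARNT2 and of CYP1A1 with both polyamines.

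**Figure D4:**
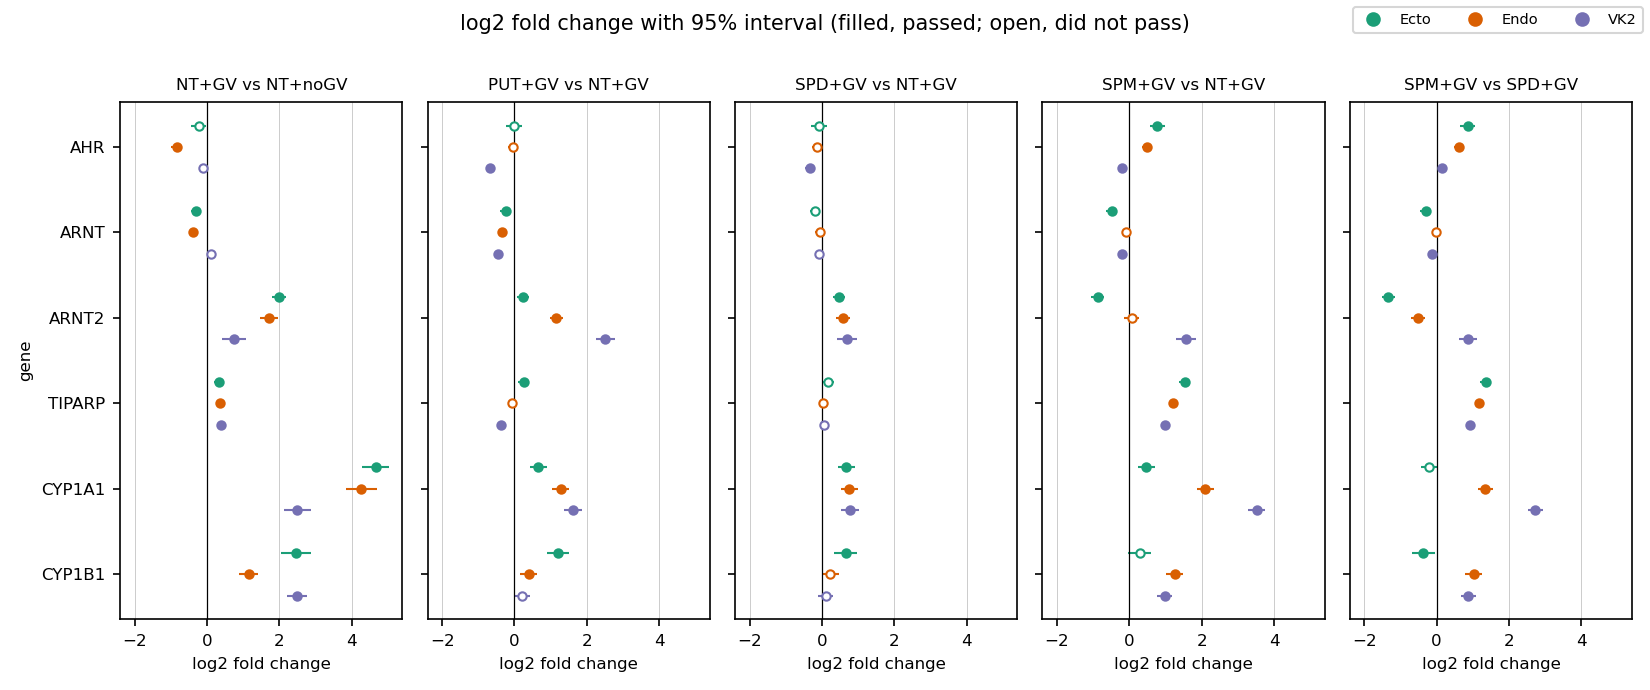
Log2 fold changes of 6 members in 5 comparisons, with 95% intervals as bars. Colours mark the lines, filled points passed at an adjusted p under 0.05 and open points did not. CYP1A1 changes by 4.66, 4.26 and 2.49 with GV in Ecto, Endo and VK2 and by 0.47, 2.10 and 3.52 with spermine before GV in the same order of lines.

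Without GV, CYP1A1 stayed at or below 2.53 CPM in every library, those with a polyamine included. For PUT+noGV against NT+noGV, 4 of 7 members passed in Ecto, 4 of 8 in Endo and 5 of 8 in VK2, where 46.8%, 31.9% and 45% of all genes passed. CYP1A1 stood at 2.37, 2.44 and 2.53 CPM in Ecto PUT+noGV libraries, against 1.10, 1.21 and 1.06 CPM in NT+noGV libraries (log2 fold change 1.16, SE 0.23, adjusted p = 0.00029). The calls in Endo (0.82, adjusted p = 0.048) and VK2 (0.56, adjusted p = 0.044) were lost, at adjusted p-values of 0.063 to 0.19, on leaving out any 1 of the 6 libraries except NT+noGV replicate 2 in Endo and NT+noGV replicate 1 in VK2.

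ARNT2 rose with putrescine alone in all 3 lines. Its PUT+noGV libraries held 9.98, 10.6 and 8.16 CPM in Ecto, against 4.71, 4.33 and 5.18 CPM in NT+noGV libraries (log2 fold change 1.03, SE 0.10, adjusted p = 2.4e-09), and 5.53, 5.84 and 5.86 CPM in VK2, against 2.40, 1.53 and 2.04 CPM (1.49, SE 0.14, adjusted p = 4.6e-10). In Endo the change was 0.40 (SE 0.13, adjusted p = 0.015), and it did not pass without NT+noGV replicate 2 or PUT+noGV replicate 1 (0.093 and 0.11). ARNT fell with putrescine alone in Ecto (-0.46), Endo (-0.17, or an adjusted p of 0.083 without PUT+noGV replicate 1) and VK2 (-0.24). AHR fell in VK2 (-0.17, adjusted p = 0.019, lost without NT+noGV replicate 1 or PUT+noGV replicate 1) and in Ecto (-0.25, adjusted p = 0.048, lost without any 1 library except NT+noGV replicate 3). CYP1B1 fell in Endo (-0.45, adjusted p = 0.016, lost without NT+noGV replicate 3 or PUT+noGV replicate 2), and AHRR fell in VK2 (-0.72, adjusted p = 0.028, lost without NT+noGV replicate 2 or any PUT+noGV library).

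For SPD+noGV against NT+noGV, 0 of the 7, 8 and 8 members tested in Ecto, Endo and VK2 passed in edgeR, where 0.303%, 0.181% and 0.46% of all genes passed. At an unadjusted p under 0.05 there were 5 (ARNT in Ecto, TIPARP, CYP1A1 and CYP1B1 in Endo, and TIPARP in VK2), and DESeq2 called 2, CYP1B1 in Endo and TIPARP in VK2. CYP1B1 in Endo held 24.0, 23.6 and 25.2 CPM in SPD+noGV libraries, against 18.3, 17.6 and 18.7 CPM in NT+noGV libraries, without overlap (log2 fold change 0.42, 95% interval 0.15 to 0.69, adjusted p = 0.23).

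For SPM+noGV against NT+noGV, 4 of 7 members passed in Ecto, 2 of 8 in Endo and 2 of 8 in VK2, where 23.5%, 18.1% and 33% of all genes passed. CYP1A1 rose in Endo, to 2.27, 1.97 and 1.71 CPM in SPM+noGV libraries, against 0.926, 1.11 and 0.644 CPM in NT+noGV libraries (log2 fold change 1.15, SE 0.29, adjusted p = 0.0093, or 0.050 without SPM+noGV replicate 1 and 0.057 without NT+noGV replicate 3). CYP1B1 fell in Ecto, to 0.785, 0.428 and 1.28 CPM, against 1.68, 1.85 and 1.35 CPM (-0.95, SE 0.28, adjusted p = 0.014, lost without NT+noGV replicate 1 or 2 or SPM+noGV replicate 2). ARNT2 rose in Ecto (0.38, SE 0.10, adjusted p = 0.0065) and TIPARP in VK2 (0.26, SE 0.04, adjusted p = 1.0e-05). In Endo TIPARP missed the threshold (0.12, adjusted p = 0.053) and passed with DESeq2 (0.043). AHR fell in Endo (-0.29, SE 0.07, adjusted p = 0.0039) and in Ecto (-0.35, SE 0.10, adjusted p = 0.015, lost without NT+noGV replicate 1 or SPM+noGV replicate 1 or 2). Both remaining calls, ARNT in Ecto (-0.19, adjusted p = 0.045) and AHRR in VK2 (-0.68, adjusted p = 0.049), lay at the threshold and were lost on leaving out 1 library (6 of 6 and 5 of 6 libraries, the exception being SPM+noGV replicate 2 in VK2).

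Whether a polyamine changed the members more with GV than without was tested as an interaction, the log2 fold change with GV minus that without. For spermine, 5 of 7 members passed in Ecto, 4 of 8 in Endo and 5 of 8 in VK2, where 36.3%, 24.3% and 38.9% of all genes passed. CYP1A1 in VK2 had the largest such difference among the members, 3.22 (SE 0.27, adjusted p = 1.9e-09): it stood at 72, 104 and 85.1 CPM in SPM+GV libraries, against 1.92, 1.60 and 1.51 CPM in SPM+noGV libraries. Its value in Endo was 0.96 (SE 0.34, adjusted p = 0.045, lost with only these groups fitted at 0.12 and without 7 of the 12 libraries), and in Ecto 0.77 (95% interval 0.11 to 1.43, adjusted p = 0.058), where it passed with DESeq2 (0.013), with no filter (0.0020) and without NT+GV replicate 3, SPM+GV replicate 1 or SPM+noGV replicate 1 (0.0070 to 0.046). The 7 Endo libraries were NT+GV replicates 1 and 3, NT+noGV replicates 1 and 2, SPM+GV replicate 3 and SPM+noGV replicates 2 and 3.

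TIPARP had positive spermine interactions in all 3 lines, 1.47 (SE 0.10) in Ecto, 1.08 (SE 0.06) in Endo and 0.74 (SE 0.06) in VK2, with adjusted p-values of 8.9e-12, 2.3e-14 and 9.2e-12. CYP1B1 did as well, at 1.24 (adjusted p = 0.0037), 1.36 (adjusted p = 9.1e-06) and 0.76 (adjusted p = 0.0024). In Ecto the CYP1B1 change with GV was 0.29 and did not pass. Its interaction there came mostly from a fall without GV, from a mean of 1.63 CPM in NT+noGV to 0.831 CPM in SPM+noGV libraries. That fall was itself lost on leaving out any of 3 of the 6 libraries. AHR had 1.13 in Ecto (adjusted p = 2.2e-06) and 0.78 in Endo (adjusted p = 2.7e-06), with an interval of -0.25 to 0.11 in VK2. ARNT2 had -1.26 in Ecto (SE 0.13, adjusted p = 2.9e-08) and 1.88 in VK2 (SE 0.22, adjusted p = 4.0e-08). The last calls were ARNT in Ecto (-0.29, adjusted p = 0.022, or 0.056 to 0.064 without NT+noGV replicate 1, SPM+GV replicate 3 or SPM+noGV replicate 2) and AHRR in VK2 (0.96, adjusted p = 0.030, lost without 6 of the 12 libraries: NT+GV replicate 3, NT+noGV replicate 2, SPM+GV replicates 2 and 3, and SPM+noGV replicates 1 and 3).

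For putrescine, 2 of 7, 2 of 8 and 5 of 8 members passed this interaction in Ecto, Endo and VK2, where 26.4%, 34.8% and 27.6% of all genes passed. ARNT2 had -0.79 in Ecto (SE 0.12, adjusted p = 3.4e-05), 0.76 in Endo (SE 0.16, adjusted p = 0.00032) and 1.03 in VK2 (SE 0.20, adjusted p = 0.00016). CYP1B1 had 1.01 in Ecto (adjusted p = 0.0090) and 0.84 in Endo (adjusted p = 0.00098). In VK2 the others were CYP1A1 (1.06, adjusted p = 0.0031), AHR (-0.49, adjusted p = 7.6e-05), TIPARP (-0.28, adjusted p = 0.00041) and ARNT (-0.22, adjusted p = 0.014, or 0.066 without PUT+noGV replicate 2). For spermidine, 1 of 8 passed in Endo (ARNT2, 0.70, adjusted p = 0.016, or 0.053 to 0.073 without NT+noGV replicate 3, SPD+GV replicate 3 or SPD+noGV replicate 3) and 1 of 8 in VK2 (AHR, -0.38, adjusted p = 0.039, lost without 8 of the 12 libraries, the exceptions being NT+GV replicate 2, NT+noGV replicate 1 and SPD+GV replicates 1 and 3). In Ecto 0 of 7 passed in edgeR, with 1 at an unadjusted p under 0.05 and 0 by DESeq2. Across all genes 3.13%, 3.45% and 0.352% passed in Ecto, Endo and VK2.

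Spermine, which carries one more aminopropyl group than spermidine, was given at the same 400 µM, and the pair was compared directly. With GV, 6 of 7 members differed in Ecto, 5 of 8 in Endo and 6 of 8 in VK2, where 53.8%, 44.6% and 52.6% of all genes did. TIPARP was higher with spermine in all 3 lines, by log2 differences of 1.35 in Ecto (SE 0.07), 1.17 in Endo (SE 0.04) and 0.93 in VK2 (SE 0.04), and averaged 177 ± 21.1, 221 ± 16.6 and 351 ± 24.3 CPM in SPM+GV libraries, against 76.8 ± 2.14, 101 ± 3.41 and 186 ± 2.11 CPM in SPD+GV libraries (SD, n = 3 each). CYP1A1 was higher with spermine in Endo (1.35, SE 0.10, adjusted p = 2.1e-09) and VK2 (2.73, SE 0.10, adjusted p = 3.3e-17). In Ecto its SPM+GV libraries held 28, 40.5 and 36.8 CPM, against 42.3, 44.8 and 48.3 CPM in SPD+GV libraries, and the difference did not pass (-0.21, 95% interval -0.44 to 0.02, adjusted p = 0.11), although it did with no filter (0.016) and without SPM+GV replicate 2 (0.025).

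ARNT2 was lower with spermine than with spermidine in Ecto (log2 difference -1.34, SE 0.08, adjusted p = 6.1e-13) and Endo (-0.52, SE 0.09, adjusted p = 2.7e-05) and higher in VK2 (0.87, SE 0.12, adjusted p = 2.1e-07). CYP1B1 was higher with spermine in Endo (1.02, SE 0.11) and VK2 (0.87, SE 0.10), and lower in Ecto (-0.37, adjusted p = 0.038, or 0.060 with DESeq2, and lost without SPD+GV replicate 2 or 3 or SPM+GV replicate 1 or 2). AHR was higher with spermine in Ecto (0.85, SE 0.10), Endo (0.62, SE 0.07) and VK2 (0.15, adjusted p = 0.043, lost without SPD+GV replicate 2 or any SPM+GV library). ARNT was lower in Ecto (-0.30, adjusted p = 0.0010) and VK2 (-0.14, adjusted p = 0.013, or 0.059 and 0.060 without SPM+GV replicate 3 or SPD+GV replicate 1, and 0.056 with only these groups fitted), with an interval of -0.14 to 0.10 in Endo. AHRR in Ecto had 0.118, 0.139 and 0.186 CPM with spermine, against 0.210, 1.42 and 0.968 CPM with spermidine (-2.38, SE 0.74, adjusted p = 0.010, or 0.060 without SPD+GV replicate 2). In VK2 it had 5.46, 6.84 and 7.47 CPM with spermine, against 4.36 to 4.99 CPM with spermidine, and this difference missed the threshold in edgeR (0.50, adjusted p = 0.063) and passed with DESeq2 (0.037).

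Without GV, 1 of 7, 2 of 8 and 2 of 8 members differed between spermine and spermidine in Ecto, Endo and VK2, where 20.4%, 12.6% and 28.3% of all genes did. CYP1B1 was lower with spermine in Ecto (-1.10, SE 0.28, adjusted p = 0.0069, or 0.053 without SPM+noGV replicate 2, and 0.11 with only these groups fitted) and Endo (-0.52, SE 0.13, adjusted p = 0.011). In Endo it held 19.5, 16.2 and 15.9 CPM in SPM+noGV libraries, against 24.0, 23.6 and 25.2 CPM in SPD+noGV libraries. ARNT2 was lower in VK2 (-0.63, SE 0.17, adjusted p = 0.0050, or 0.15 without SPD+noGV replicate 1). AHR was lower in Endo (-0.26, adjusted p = 0.013) and VK2 (-0.17, adjusted p = 0.033, lost without SPD+noGV replicate 1 or 3 or SPM+noGV replicate 1 or 2), and both Endo calls were lost without SPD+noGV replicate 3 or SPM+noGV replicate 2. In Ecto the AHR difference was -0.21 (adjusted p = 0.16), and it was -0.36 (adjusted p = 0.0021) without SPD+noGV replicate 3, the library farthest from its group. For CYP1A1 the 95% intervals of the difference were -0.93 to 0.35 in Ecto, -0.20 to 0.88 in Endo and -0.34 to 0.63 in VK2. Putrescine was given at 4 mM, so its values stand beside those of the other polyamines without a test: with GV, CYP1A1 averaged 42.5 ± 2.98, 41.4 ± 2.64 and 24.0 ± 1.5 CPM in Ecto, Endo and VK2 PUT+GV libraries (SD, n = 3 each).

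**Figure D5:**
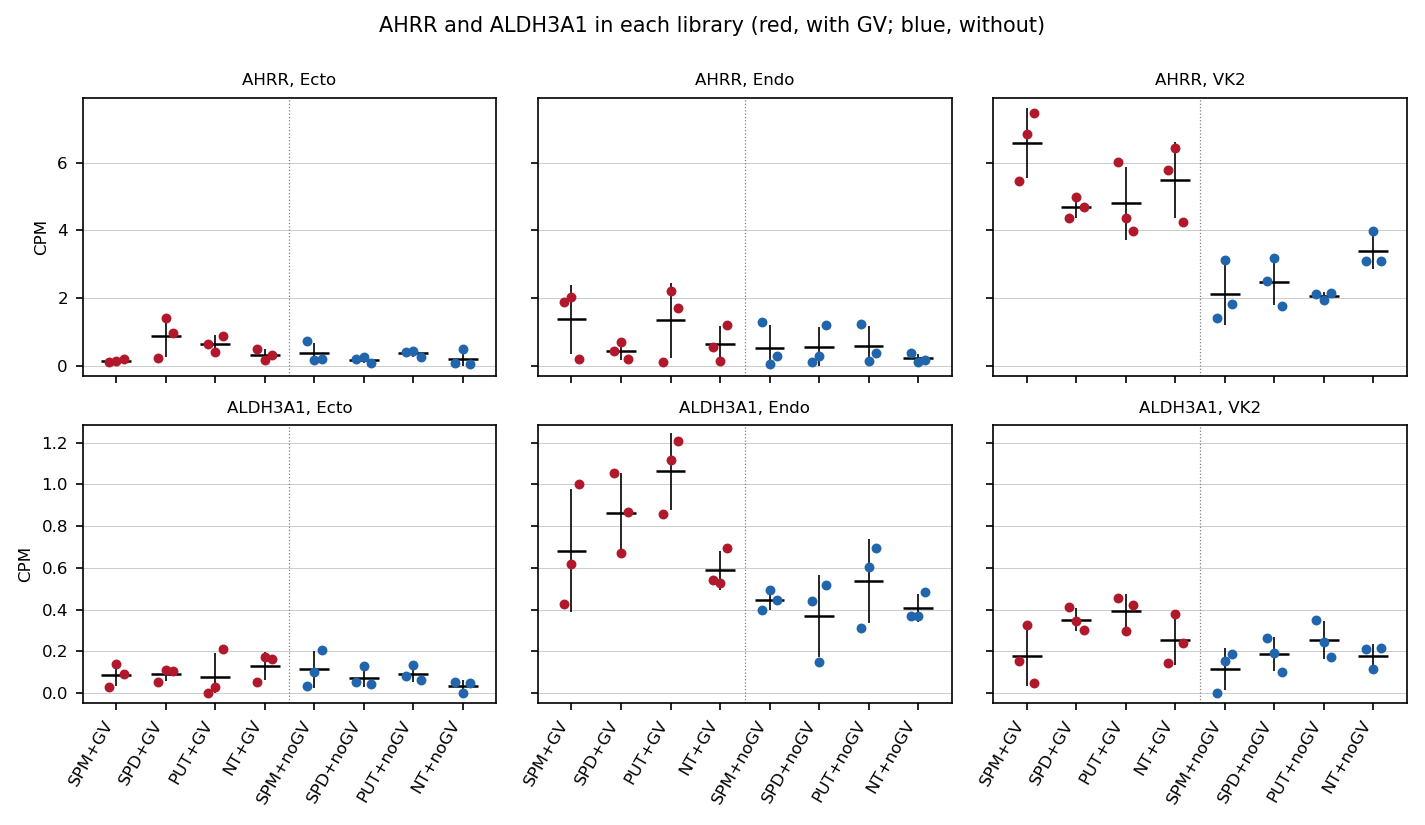
Levels of the lowly expressed members AHRR and ALDH3A1 in each of 72 libraries, with 1 row per gene and 1 column per line. The vertical axis is CPM on a linear axis, the horizontal axis gives the 8 groups, points are libraries (red with GV, blue without), horizontal bars are means and vertical bars the SD of 3. AHRR reaches 7.47 CPM in a VK2 SPM+GV library and ALDH3A1 no more than 1.21 CPM, in an Endo PUT+GV library.

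Other genes of the pathway were followed as lists. Among 10 enzymes that make or clear tryptophan-derived ligands, 8 were tested in Ecto and 7 in each of Endo and VK2, and with GV alone 6, 5 and 1 of them passed (medians of 0.16, 0.21 and -0.00 on the log2 scale, against 0.00, -0.00 and 0.00 over all genes tested). Of all genes tested, 44.6%, 54.4% and 26.4% passed in that comparison, so that the count in VK2 lay below the share of all genes. KYNU, which hydrolyses kynurenine, rose in all 3 lines (Ecto 1.89, Endo 1.64, VK2 1.53) on the log2 scale, in which all list changes are given. The aminotransferases KYAT1 and KYAT3 fell in Ecto, by 0.46 and 0.54, and in Endo, by 0.59 and 0.29. IDO2 and TDO2 were too low to test in any line, and IDO1 was tested in Ecto only. With spermine before GV, 6 of 8, 6 of 7 and 5 of 7 passed, where 56%, 43% and 58.3% of all genes did (medians -0.05, -0.26 and 0.28). Of those that passed, 3, 3 and 2 rose and 3 fell in each line. In the same comparison KYNU fell in Ecto by 0.86 and KMO, which hydroxylates kynurenine, rose in each line (Ecto 3.71, Endo 1.77, VK2 3.73). KMO in each line, KYNU in VK2 and IVL in Ecto were under the level set for examples and were chosen after their values were seen.

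Among 9 further xenobiotic genes, 5 of 8 in Ecto, 6 of 7 in Endo and 4 of 8 in VK2 passed with GV alone, where 44.6%, 54.4% and 26.4% of all genes did (medians 0.25, -0.30 and 0.24). ALDH1A3, a retinaldehyde dehydrogenase, rose by 1.74, 0.46 and 0.81 with GV alone, and fell by 0.99, 0.75 and 1.34 with putrescine before GV. In the latter comparison 7 of 8, 7 of 7 and 5 of 8 passed, where 56.3%, 56.1% and 60.4% of all genes did. Of those that passed, 4, 4 and 2 rose and 3 fell in each line. The quinone reductase NQO1 rose with spermidine before GV, by 0.41, 0.55 and 0.78, and with spermine before GV, by 0.20, 0.71 and 0.70, in the same order of lines. With spermidine 3 of 8, 3 of 7 and 3 of 8 passed, where 13.1%, 13.9% and 12.7% of all genes did. Of those, 2, 2 and 1 rose and 1, 1 and 2 fell. With spermine 5 of 8, 7 of 7 and 6 of 8 passed, where 56%, 43% and 58.3% of all genes did. Of those, 2, 6 and 4 rose and 3, 1 and 2 fell. CYP1A2, close in sequence to CYP1A1 and so uncertain, rose by 4.33 in Ecto and 3.54 in VK2 with GV alone, at low counts.

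Among 6 coactivators, 5 of 6, 5 of 6 and 6 of 6 passed with spermine before GV in Ecto, Endo and VK2 (medians -0.06, -0.09 and 0.05, against -0.02, -0.01 and -0.02 over all genes tested), where 56%, 43% and 58.3% of all genes did. In that comparison 2, 2 and 3 of them rose and 3 fell in each line. The acetyltransferase EP300 rose by 1.22, 0.68 and 0.75 and its relative CREBBP by 0.54, 0.43 and 0.46, while NCOA2 fell by 0.58, 0.33 and 0.20. Of 6 other bHLH-PAS genes, 4, 5 and 5 passed with spermine before GV (medians -0.22, -0.20 and -0.33). With putrescine before GV, 4, 6 and 4 passed, where 56.3%, 56.1% and 60.4% of all genes did (medians -0.42, -0.16 and -0.20, against 0.07, 0.03 and 0.01 over all genes tested). In Ecto, 4 of 6 was near the share of all genes in both comparisons, as was 4 of 6 in VK2 with putrescine before GV. HIF1A, the hypoxia factor that also pairs with ARNT, fell by 0.89, 0.40 and 0.50 with spermine before GV and by 1.29, 0.54 and 0.48 with putrescine before GV. Among 4 chaperones of the cytosolic receptor, 1, 3 and 2 passed with GV alone, where 44.6%, 54.4% and 26.4% of all genes did (medians -0.06, 0.40 and 0.11). HSP90AA1 rose by 1.00 in Endo.

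Of 5 genes of squamous differentiation, LORICRIN and HRNR were too low to test, and of the other 3, with GV alone, 2 passed in Ecto, 3 in Endo and 2 in VK2, where 44.6%, 54.4% and 26.4% of all genes did (medians 1.86, 0.96 and 0.29). IVL, a cornified envelope protein, rose by 1.86, 0.96 and 0.25, and fell with spermine before GV by 1.09, 0.72 and 0.79. OVOL1, a transcription factor downstream of AHR in keratinocytes, rose with spermine before GV by 3.46, 1.13 and 1.83 and with putrescine before GV by 1.95, 0.90 and 0.88. Of the 3 genes tested, 2, 3 and 2 passed with spermine, where 56%, 43% and 58.3% of all genes did. There 1 rose in each line and 1, 2 and 1 fell. With putrescine 1, 3 and 3 passed, where 56.3%, 56.1% and 60.4% of all genes did. There 1, 2 and 2 rose and 0, 1 and 1 fell.

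Across the 72 libraries, with each line centred on its own mean, CYP1A1 and CYP1B1 had a Pearson correlation of 0.93, CYP1A1 and ARNT2 of 0.85, CYP1A1 and TIPARP of 0.71, and CYP1A1 and AHR of -0.47. Within lines the last of these differed in sign, at 0.16 in Ecto, -0.80 in Endo and -0.70 in VK2 (n = 24 libraries each), whereas CYP1A1 and TIPARP had 0.68, 0.73 and 0.74. These libraries share lines and treatments, so the values are a description. Of 12731 genes, those most like CYP1A1 were SERPINB8 (0.97), WAKMAR2 (0.97) and ZC3H12A (0.95), those most like ARNT2 were LCAL1, PNPLA2 and HS6ST1 (0.94, 0.94 and 0.93), and those most like TIPARP were TP53BP2, CCNL1 and PPP1R15A (0.95, 0.94 and 0.94). LMO4 (0.93) was most like AHR and PPIP5K1 (0.93) most like ARNT, whereas AHRR had no gene above 0.53.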

How the data were processed

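The data were total RNA-seq libraries of Ecto, Endo and VK2 cells in 8 groups of 3 per line, made with a stranded kit and sequenced as paired reads. The authors estimated counts with Salmon against GENCODE release 44 and summed them per gene, and the deposited table holds whole-number counts for 62266 genes in 72 libraries, not normalized. Per the labels, FastQC, Salmon, R 4.32 and GRCh38.p13 were used. Whether duplicate reads were removed by molecular identifier is not given in the sources used here, so the floors cover counting error only. The intervals rest on the standard errors of the edgeR tests, which include the spread between these libraries. Members and lists were chosen with earlier results of these data known.

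Samples were grouped by their GEO titles. CPM values, each count scaled to the size of its library, were computed here with TMM factors over all 72 libraries. Tests used edgeR 4.0.16 (R 4.3.3, limma 3.58.1): quasi-likelihood F-tests, two-sided, after filterByExpr, in 1 model per line over 24 libraries (19459, 18741 and 18474 genes tested in Ecto, Endo and VK2), and in 1 model over 72 libraries for differences between lines. P-values were adjusted by Benjamini-Hochberg over all genes tested, and a gene passed at an adjusted p under 0.05. Standard errors were derived from the F statistic. The functions were tested on simulated counts with known fold changes. Alternatives were DESeq2 1.42.0, its size factors, no filter, only the groups compared, the replicate number as a block, a fold change of at least 2, and leaving out each library. All 8 members are named. Examples from lists were planned as those with the largest change that passed and whose log2 CPM averaged 1 or more. This rule was not kept throughout. KMO in each line, KYNU in VK2 and IVL in Ecto were under that level and were chosen after their values were seen, and CYP1A2 was given at low counts. The authors' library sheet gave no measurement and was not used.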

Additional observations from a re-analysis of the deposited data

Results flagged for a closer look

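The response of a member differed between Ecto, Endo and VK2 in 16 cases, each by a test of the difference itself over 72 libraries (edgeR, adjusted over all genes tested). For GV alone the adjusted p-values were 6.68e-07 for AHR, 2.95e-06 for ARNT, 6.68e-07 for ARNT2, 5.70e-07 for CYP1A1 and 4.00e-08 for CYP1B1, with the log2 fold changes given in the report. For putrescine before GV they were 6.53e-06 for AHR, 7.47e-20 for ARNT2, 4.65e-08 for TIPARP, 6.99e-06 for CYP1A1 and 2.61e-05 for CYP1B1.

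For spermine before GV they were 1.11e-09 for AHR, 7.73e-05 for ARNT, 1.73e-19 for ARNT2, 8.88e-08 for TIPARP, 2.98e-20 for CYP1A1 and 2.47e-05 for CYP1B1. Each line is 1 immortalized line and each response is set against the NT group of its own line. ARNT2 changed sign between lines with spermine (-0.87 in Ecto and 1.57 in VK2), as did TIPARP with putrescine (0.25 in Ecto and -0.37 in VK2) and AHR with spermine (0.78 in Ecto and -0.19 in VK2).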

How the results depend on the processing

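Over the 8 members in 3 lines, 23 values could be tested in each comparison, and none of the members' called changes took the other sign under any alternative run. Counts of passing members moved most when a fold change of at least 2 was also asked for, to 8 instead of 16 for GV alone, 5 instead of 15 for putrescine before GV, 0 instead of 8 for spermidine before GV (8 of 23 passed at any size in edgeR, with 12 at an unadjusted p under 0.05 and 9 by DESeq2) and 6 instead of 15 for spermine before GV. Under the same rule they were 3 instead of 13 for putrescine and 1 instead of 8 for spermine without GV, 7 instead of 17 for spermine against spermidine with GV and 1 instead of 5 without, and 3 instead of 9, 0 instead of 2 and 8 instead of 14 for the interactions of putrescine, spermidine and spermine with GV. By construction these drop the smaller changes. Among all genes that passed in Ecto, Endo and VK2, the rule kept 1259 of 8683, 1739 of 10198 and 413 of 4882 for GV alone. It kept 1927 of 10962, 1514 of 10516 and 2051 of 11150 for putrescine before GV. For spermidine before GV it kept 107 of 2555, 83 of 2611 and 80 of 2349. For spermine before GV it kept 2621 of 10897, 1093 of 8054 and 2047 of 10763.

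For spermidine without GV, 0 passed in the edgeR model, 2 with DESeq2, 2 with no filter, 2 with only the groups compared and 1 with the replicate block; for its interaction with GV, 1 instead of 2 passed with only the groups compared; the cause was not tested. Leaving out single libraries gave 5 to 9 for spermine without GV, 3 to 6 for spermine against spermidine without GV and 1 to 2 for the interaction of spermidine with GV, and for the other counts stayed within 1.5 times. Of 276 tested values, 268 kept their side of the threshold with DESeq2, 271 with its size factors and 257 with no filter. With only the groups compared, 239 of 260 values kept it. On leaving out 1 library, 1944 of 2070 values kept their side, 106 no longer passed and 20 passed that had not before.

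The labels do not say what libraries of the same number share, so the main models did not pair samples by number. Same-numbered libraries did not all deviate together (lowest correlation of a pair -0.14 in Ecto, -0.09 in Endo and -0.13 in VK2). Their median correlations were nonetheless higher, at 0.03, 0.12 and 0.08, against -0.03, -0.06 and -0.05 for pairs of different numbers. Also, 60 of 72 libraries correlated best on average with their own number, a hint of a shared replicate effect from the data and not from the design. Its source was not tested. With the replicate block 269 of 276 values kept their side, 1, AHR with putrescine alone in Ecto, was lost (adjusted p = 0.061), and 6 were gained. These were CYP1A1 in Ecto for spermine against spermidine with GV (0.033) and for the spermine interaction (0.014), TIPARP with spermine alone in Endo (0.034) and with spermidine alone in VK2 (0.040), and in VK2 CYP1B1 with putrescine before GV (0.040) and AHRR for spermine against spermidine with GV (0.041). The member counts limit AHRR (1 to 212 counts a library) and ALDH3A1 (0 to 41) most, and small changes in them were not detectable at this depth.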

Other observations

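Genes that overlap or resemble members were looked at after the members' values were seen. CYP1B1-AS1, the antisense neighbour of CYP1B1, rose with GV alone in Ecto (log2 fold change 2.14, adjusted p = 0.010), with spermine before GV in Endo (1.80, adjusted p = 3.4e-05) and VK2 (2.59, adjusted p = 0.00076), and with putrescine before GV in VK2 (1.54, adjusted p = 0.048). The library kit marks strand, and reads of the pair were not separated further here. PDCD6-AHRR, the read-through gene that shares exons with AHRR, rose in Ecto with putrescine, both before GV (1.15, adjusted p = 0.0495) and without GV (1.33, adjusted p = 0.041), in which comparisons AHRR itself had 1.03 (adjusted p = 0.19) and 1.03 (adjusted p = 0.30). With putrescine before GV, AHRR passed with no filter (adjusted p = 0.031) and with only the groups compared (0.023). With putrescine alone it passed without NT+noGV replicate 2 (0.030).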
